A study of Mus musculus with 20 samples.

Results

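The effect of genotype was examined over both diets together, by setting all 10 libraries of ACC2 iKO hearts against all 10 libraries of WT hearts, which are the 20 libraries of the series. The genes of main interest are those that shifted alike on both diets and that a test of either diet alone, with 5 mice a side, did not call. Of 25052 genes listed, 12775 reached 0.5 FPKM (a level per transcript length and library size) in at least 5 libraries and were tested, and 275 of these met that rule.

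RNA came from frozen left ventricles of male mice. The iKO mice carried ACC2 f/f (floxed alleles of Acacb) and MerCreMer, a Cre recombinase that tamoxifen switches on, and the WT mice were littermates with ACC2 f/f and without the Cre. Both genotypes were given tamoxifen (20 mg/kg, 5 days) when 8 weeks old, and 4 weeks later began 16 weeks on chow or on the high-fat diet D12492 of Research Diets (HFD), which gave 5 mice in each of 4 groups. The labels do not name the promoter that drives MerCreMer, and no group carried the Cre without floxed alleles, so that effects of ACC2 loss, of the Cre and of its insertion cannot be told apart. Chow libraries are numbered RT1 to RT10 and HFD libraries RT11 to RT20, with both genotypes in each run of numbers, so that the value within a diet is also the value within that run.

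Acacb encodes ACC2, the carboxylase on the mitochondrial surface that makes malonyl-CoA, an inhibitor of the carnitine palmitoyltransferase through which long-chain fatty acids enter mitochondria. The heart lives mainly on fatty acids and also burns glucose, lactate, ketone bodies and the branched-chain amino acids leucine, isoleucine and valine. The latter are first transaminated, then decarboxylated by a branched-chain ketoacid dehydrogenase complex in mitochondria, and their carbon ends as acetyl-CoA, succinyl-CoA or acetoacetate. Genes of fatty acid use are under the transcription factor PPAR-alpha, which binds DNA together with RXR.

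The floxed gene and the transgene matched the labels in every library. Values here and below are FPKM scaled by median-of-ratios factors, and changes are iKO minus WT on the scale of log2(scaled FPKM + 1), where the change of weakly expressed genes is understated. Acacb (ENSMUSG00000042010.16, chromosome 5, 114146535 to 114250761 on GRCm38) had a lowest, median and highest value of 35.9, 38.5 and 44.3 in the 10 WT libraries and of 8.14, 8.93 and 12.2 in the 10 iKO libraries. It fell by 1.93 (SE 0.05, adjusted p = 1.49e-17, limma with Benjamini-Hochberg adjustment over all tested genes). Esr1, the estrogen receptor gene whose ligand-binding part is in MerCreMer, had values of 0.271, 1.16 and 2.08 in WT and 411, 871 and 1417 in iKO, which include reads of the transgene. Summed over 12 cardiomyocyte markers, scaled FPKM lay between 36506 and 48999.5 in all libraries, and Myl7, a defining atrial gene, was below the filter. A list of 5 tested atrial muscle markers summed to 496.66 in WT chow library RT1 and 306.59 in iKO chow library RT4, against 34.13 to 195.02 in the others. The reads assigned to genes were estimated at 12.7 M to 31.8 M per library (median 22.6 M). Nothing in the labels says more of the replicates than that they are separate samples, so that p-values measure the spread between these samples.

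Over both diets 413 genes were called at an adjusted p under 0.05, which is 3.23% of those tested: 102 were higher in iKO (0.798%) and 311 lower (2.43%). The same threshold called 148 genes on chow alone (1.16%) and 25 on HFD alone (0.196%). On chow these were 18 higher (0.141%) and 130 lower (1.02%), and on HFD 8 higher (0.0626%) and 17 lower (0.133%). No gene was called for a difference of the genotype effect between diets (0%) by limma, and 537 genes (4.2% of those tested) were under an unadjusted p of 0.05 for it. Of the pooled calls, 138 genes (1.08%) were also called on at least 1 diet and 275 (2.15%) on neither. These 275 were 85 genes higher (0.665%) and 190 lower (1.49%) in iKO. In each of them both diets gave the same sign and at least 50% of the pooled change, so that this rule removed no gene. Leaving out genes called on a diet favours such agreement, which is therefore no separate result. The pooled, single-diet and between-diet estimates share their libraries, so that these counts describe what the pooled fit adds and are not independent of each other. Without RT1 and RT4, the libraries high in atrial markers, 284 genes were called over both diets, 180 of them in neither single-diet test. Leaving out 1 library at a time moved the 275 to between 155 (without RT13) and 431 (without RT11), their 85 rises to between 47 and 167 (without the same libraries), and the 25 calls on HFD to between 7 (without RT13) and 49 (without RT4).

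The split between rises and falls depended on the scaling. With FPKM as deposited and no scaling, 692 genes were called, 547 higher and 145 lower, so that 79% were higher against 24.7% of the scaled calls. The median change of all tested genes was then 0.06, against 0.0005 after scaling. Of the 413 genes, 247 were also called without scaling. All 102 rises were among these, and 145 of the 311 falls. With upper-quartile scaling 483 genes were called, 86 higher and 397 lower.

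The genes that only the pooled test called had small shifts, which their choice favours, since genes called on a diet are left out. Their absolute change had a median of 0.21 and ran from 0.10 to 0.70, with 8 genes over 0.5 and none over 1. The 138 genes that a single diet also called had a median of 0.29. The median standard error of all genes was 0.05 in the pooled test and 0.07 on either diet. Of the 275 genes, 231 had an unadjusted p under 0.05 on both diets, which their choice favours as well. The lowest adjusted p of a single diet by limma was 0.0522 on chow and 0.0524 on HFD, just outside the threshold.

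**Figure D1:**
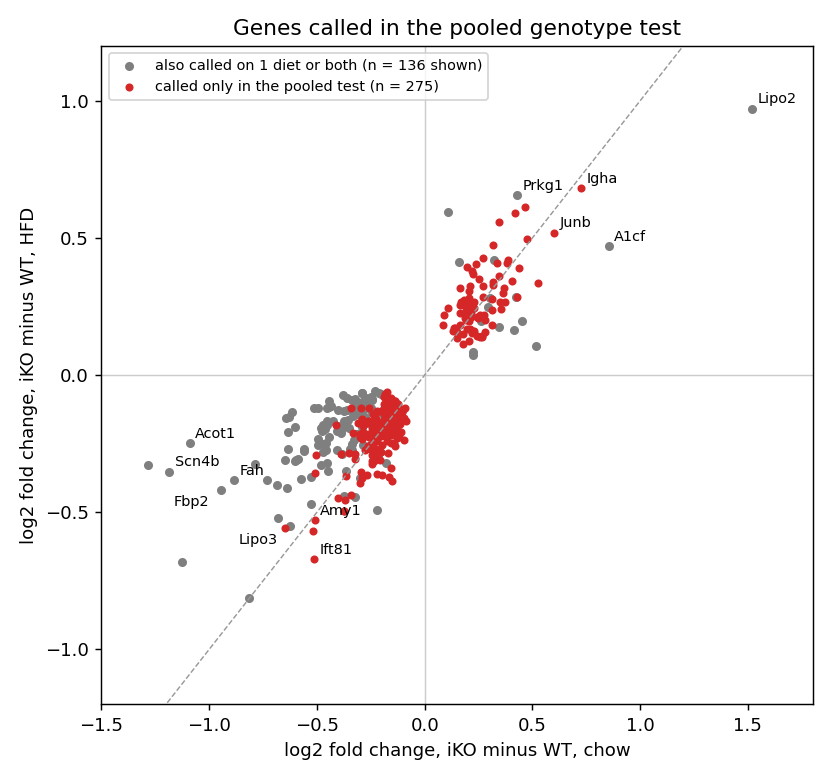
Change in iKO against WT on chow (horizontal axis, log2) and on HFD (vertical axis, log2) for the genes called in the pooled test, without Acacb and Esr1. Grey points are genes also called on at least 1 diet and red points the 275 genes called on neither, and the dashed line marks equal change; all points lie in the 2 quadrants of equal sign, and most grey points below 0 lie above the line because their fall was larger on chow.

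Marker levels of other cell types differed between the libraries of both genotypes and are given here because they touch all counts. The level of 11 fibroblast markers, as the mean of centred log2 values, lay between -0.294 and -0.018 in the 10 WT libraries (mean -0.154 ± 0.094, SD) and between -0.31 and 0.706 in the 10 iKO libraries (0.154 ± 0.352). In 5 iKO libraries (RT2, RT4, RT13, RT15 and RT17) it was above every WT library, and in the other 5 it was within or below the WT range. Summed over the 11 markers, which include Pdgfra, Dcn, Col1a1 and Tcf21, the scaled FPKM were 695.6 to 858.1 in WT and 720.9 to 1440.1 in iKO. None of these markers was called, 10 of 11 had a change above 0, and their median change was 0.29. With this level as a covariate, an alternative added after the data were seen, 94 genes were called in place of 413, and 13 of the 275 genes stayed called. The level itself differed between the genotypes on average, so that the covariate also takes up part of the genotype difference. Of 12 macrophage markers none was called and 11 had a change above 0, with levels of -0.275 to 0.046 in WT and -0.222 to 0.302 in iKO, where RT2, RT4, RT7, RT13 and RT17 were above every WT library. Of 11 lymphocyte markers 2 were tested, neither was called and both changes were above 0, with 6 iKO libraries (these 5 and RT15) above every WT library in their level. Of 12 cardiomyocyte markers none was called and 10 had a change below 0, with a median of -0.08. No endothelial or smooth muscle and pericyte marker was called, with medians of -0.014 and -0.032. In bulk tissue a change in the number of cells of a type and a change of RNA per cell cannot be told apart.

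Of 53 gene lists, that of branched-chain amino acid breakdown held the most added genes, and it was chosen with earlier results of these data known. Of its 21 tested genes 13 fell and none rose, and all 13 were called in neither single-diet test. Among all tested genes 2.43% were called lower. All 21 changes were below 0, with a median of -0.16 against 0.0 for all genes. Other mitochondrial lists leaned the same way. Changes below 0 were 22 of 22 in the tricarboxylic acid cycle (median -0.10) and 78 of 81 in nuclear respiratory chain subunits (-0.117). They were 13 of 13 in mitochondrially encoded genes (-0.125) and 16 of 17 in mitochondrial chaperones and proteases (-0.065). On chow the mean level of the list was 0.166 ± 0.042 for WT hearts (SD, n = 5) and 0.018 ± 0.095 for iKO hearts, and 0.0 ± 0.035 in WT and -0.183 ± 0.077 in iKO on HFD, in centred log2 units. On each diet every iKO library lay below every WT library.

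Genes of the first, shared steps fell. Bcat2, the mitochondrial transaminase, had values of 41.9, 50.8 and 61.7 (lowest, median and highest) in WT and of 39.3, 45.2 and 54.3 in iKO. It fell by 0.19 (SE 0.05, adjusted p = 0.0216 by limma). Bckdhb, the beta subunit of the first enzyme of the ketoacid dehydrogenase, had values of 21.8, 24.9 and 28.2 in WT and of 14.9, 19.3 and 26.0 in iKO. On HFD the genotypes did not overlap, at 23.0 ± 0.871 (SD, n = 5) and 17.8 ± 1.86, and its pooled fall was 0.28 (SE 0.06, adjusted p = 0.00653). Bckdha, the alpha subunit, and Dbt, the transacylase core, fell by 0.17 each, with adjusted p of 0.0445 and 0.042 by limma, and lost their call in 14 and 15 of 20 fits that each left out 1 library. Ppm1k, the phosphatase that activates the complex, fell by 0.26 (adjusted p = 0.0327), while its opponent, the kinase Bckdk, did not pass the test (-0.10, adjusted p = 0.188). Nor did Dld, the subunit that this complex shares with other dehydrogenases (-0.12, adjusted p = 0.117).

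Ivd, isovaleryl-CoA dehydrogenase of the leucine branch, gave the smallest p of the list. Its values were 101, 113 and 133 in WT and 75.9, 96.8 and 119 in iKO. The group means were 127 ± 7.15 (SD, n = 5) and 109 ± 10.1 on chow and 107 ± 3.87 and 87.0 ± 9.61 on HFD, where the genotypes did not overlap. Ivd fell by 0.26 in the pooled test (SE 0.05, adjusted p = 0.00331), against adjusted p of 0.164 on chow and 0.0878 on HFD. The other leucine genes Mccc1, Mccc2 and Auh did not pass (-0.08, -0.13 and -0.10).

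The valine branch and the propionate steps fell in most members. Hibadh, which oxidises hydroxyisobutyrate, fell by 0.15 (adjusted p = 0.00974 by limma), from a median of 144 to 129.9. Hibch, the hydrolase before it, fell by 0.12 (adjusted p = 0.0361), and Aldh6a1, the dehydrogenase after it, by 0.18 (adjusted p = 0.0264). Abat, a transaminase of beta-aminoisobutyrate and of GABA, fell by 0.32 (SE 0.08, adjusted p = 0.0206). Chow values were 7.07 ± 1.09 for WT (SD, n = 5) and 5.33 ± 0.830 for iKO, and 1.70 ± 0.317 and 1.22 ± 0.266 were those on HFD, so that the diets stood further apart than the genotypes. Pcca, the alpha subunit of propionyl-CoA carboxylase, had values of 28.0, 30.7 and 34.6 in WT and of 23.5, 27.0 and 29.6 in iKO. It fell by 0.22 (adjusted p = 0.00434), with an estimate of -0.22 on each diet. The epimerase Mcee fell by 0.17 and the mutase Mut by 0.16 (adjusted p = 0.0222 and 0.0306). Pccb and Acad8, and Acadsb of the isoleucine branch, did not pass the test (-0.10, -0.08 and -0.13).

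**Figure D2:**
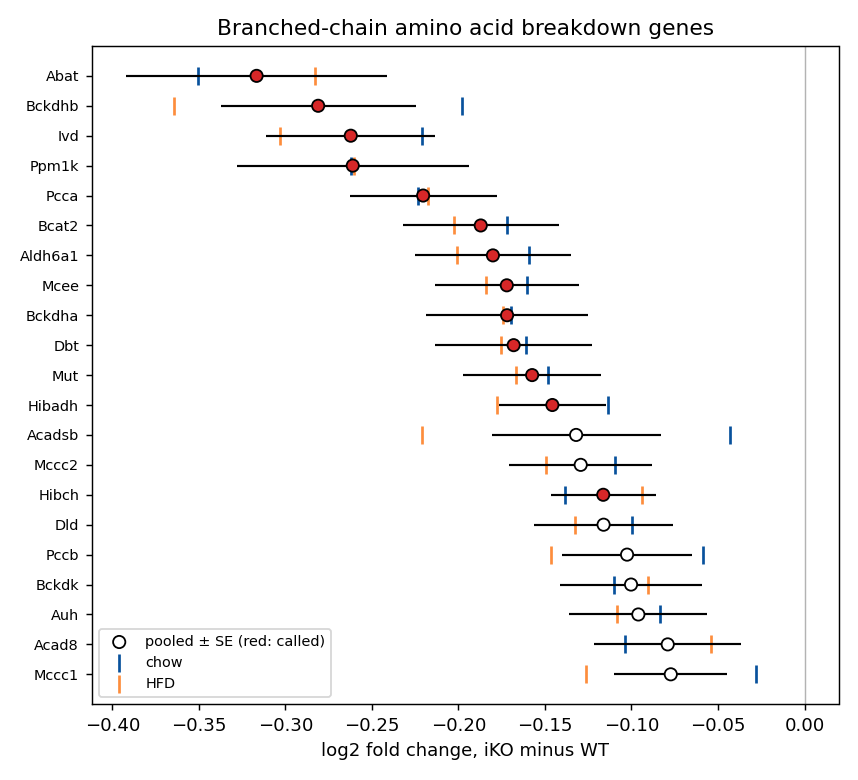
Change in iKO against WT (log2, horizontal axis) of the 21 tested genes of branched-chain amino acid breakdown (rows). Circles are pooled changes with their SE, filled red where called (13 genes), and ticks are the estimates on chow (blue) and on HFD (orange); all circles lie below 0 and most pairs of ticks lie close to their circle.

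The count of this list was sensitive to the libraries and to the fibroblast level. Leaving out 1 library at a time gave 7 to 13 called genes, the fewest without WT HFD libraries RT12 or RT18 or without iKO HFD library RT13, and medians of -0.17 to -0.13. Ivd, Pcca, Bckdhb, Hibadh, Bcat2, Mcee and Abat stayed called in all 20 such fits. Without scaling 3 genes were called, without RT1 and RT4 8, and without iKO chow libraries RT4 and RT7, chosen after the data were seen, 5. With the fibroblast level as a covariate Abat alone stayed called, and the median was -0.10. The 5 iKO libraries whose fibroblast level was within or below the WT range were RT6, RT7, RT9, RT11 and RT20. Their list levels were 0.081, 0.036 and 0.061 on chow, where the lowest WT library was at 0.105, and -0.07 and -0.152 on HFD, where the lowest WT library was at -0.051. The iKO libraries with the high fibroblast level were at 0.059 (RT2) and -0.149 (RT4) on chow. On HFD they were at -0.274 (RT13), -0.195 (RT15) and -0.223 (RT17), lower than the other iKO libraries of that diet. This split rests on levels from these same data and leaves few libraries on each diet. A part of the fibroblast level in the fall of the list was not tested.

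**Figure D3:**
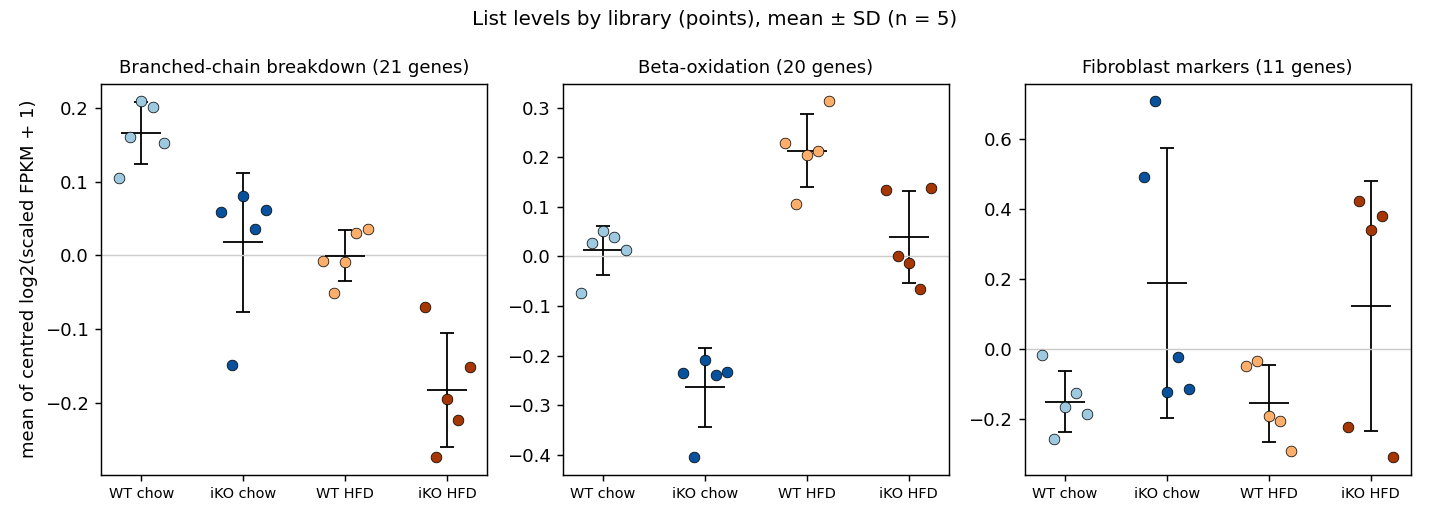
Level of 3 gene lists in each library (points, mean of centred log2(scaled FPKM + 1)) by group, with mean and SD (n = 5). The branched-chain list separates iKO from WT on each diet, as does beta-oxidation on chow, and 5 iKO libraries exceed all WT libraries in fibroblast markers.

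A few further genes of mitochondrial amino acid metabolism are named here because they fell, and say nothing of the other enzymes of that kind. Adhfe1, hydroxyacid-oxoacid transhydrogenase, was 1 of 10 genes (0.0783% of those tested) whose 10 iKO values did not overlap the 10 WT values. It lay at 33.1, 34.1 and 36.0 in WT and at 22.4, 27.3 and 32.3 in iKO, and fell by 0.32 (SE 0.05, adjusted p = 0.00153 by limma), with adjusted p of 0.124 on chow and 0.0524 on HFD. Mmab, which makes the cobalamin cofactor of the mutase, fell by 0.23 (adjusted p = 0.00121). Gcdh, glutaryl-CoA dehydrogenase of lysine breakdown, fell by 0.23, the ornithine aminotransferase Oat by 0.15 and the glutamate dehydrogenase Glud1 by 0.13 (adjusted p = 0.00459, 0.00951 and 0.0254). Of the genes without overlap 8 (0.0626%) lay below WT, among them Acacb, Kcnv2, Fah, Synj2, Cacna1s and St3gal3, and 2 above it (0.0157%), Esr1 and A1cf, the latter tested only through its iKO values. On each diet taken alone, 53 genes (0.415%) were without overlap on both diets in the same direction.

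The RNA of fatty acid oxidation genes fell more, and most of the called ones had also been called on a single diet. Of 20 tested genes of mitochondrial beta-oxidation 16 fell (80%, against 2.43% of all tested genes). Of these 16, Etfb and Echs1 were called in neither single-diet test. The 38 PPAR-alpha targets had 24 falls (63.2%), none of them added by pooling, and a median of -0.27. Acaa2, the last thiolase of the cycle, had values of 483, 578 and 738 in WT and of 309, 435 and 589 in iKO and fell by 0.46 (SE 0.05, adjusted p = 1.84e-05 by limma). Its estimates were -0.60 on chow and -0.31 on HFD, without overlap on either diet. Dbi, an acyl-CoA-binding protein, fell by nearly equal amounts on chow and HFD (-0.37 and -0.35), from medians of 150.2 in WT to 115 in iKO over both diets. With the fibroblast level as a covariate 12 of the 20 oxidation genes and 18 of the 38 targets were called, against 94 of all 12775 tested genes.

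In the tricarboxylic acid cycle 3 of 22 genes fell (13.6%, against 2.43% of all tested genes), and all 3 were added by pooling. Idh2, the mitochondrial NADP-dependent isocitrate dehydrogenase, had values of 854, 956 and 1054 in WT and of 702, 809.9 and 965 in iKO, and fell by 0.22 (SE 0.05, adjusted p = 0.0119 by limma). Suclg1, a subunit of succinyl-CoA ligase, and Mdh2, malate dehydrogenase, fell by 0.14 each (adjusted p = 0.0332 and 0.0497). The count was 1 to 7 when 1 library was left out, with 1 call without any of RT2, RT3, RT4, RT5, RT10, RT13 or RT17. All 22 changes were below 0, with a median of -0.10. Oxct1, the enzyme that activates acetoacetate in ketone body use, fell by 0.15 (adjusted p = 0.0242).

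Of 81 nuclear genes of respiratory chain subunits 6 fell (7.41%, against 2.43% of all tested genes), 5 of them added by pooling, among them the complex I genes Ndufa3, Ndufv3, Ndufs8 and Ndufb5. Ndufa3 lay at 266, 301 and 371 in WT and 219, 266 and 303 in iKO and fell by 0.21 (adjusted p = 0.0117 by limma). Cox6b2, a variant subunit of cytochrome c oxidase, fell by 0.90 and was also called on a single diet. The count was 3 without RT4 and at most 15 when another library was left out. Of the 81 nuclear genes 78 had a change below 0, with a median of -0.12. None of the 13 mitochondrially encoded genes was called, while all 13 changes were below 0, with a median of -0.13.

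Of 19 tested genes of calcium handling 2 fell (10.5%, against 2.43% of all tested genes) and none rose. Atp2a2, the calcium pump SERCA of the sarcoplasmic reticulum, had values of 2705, 3003 and 3129 in WT and 2084, 2647 and 2890.4 in iKO, and fell by 0.19 (SE 0.05, adjusted p = 0.0193 by limma). Hrc, a calcium-binding protein of the same organelle, fell by 0.22 (adjusted p = 0.00885), from a median of 336 to 295. Of 5 tested sodium channel subunits Scn4b and Scn4a fell (by 0.77 and 0.42, adjusted p = 0.00129 and 0.00303 by limma), and both were also called on chow. They were 40% of that short list, against 2.43% of all tested genes called lower. Of 17 potassium channel genes Kcnv2 and Kcnj3 fell and Kcnip2 rose (17.6% called, against 3.23% of all tested genes). Kcnip2, the subunit KChIP2 of the transient outward current, had values of 49.8, 65.8 and 73.5 in WT and of 60.0, 72.8 and 94.9 in iKO. It rose by 0.22 (SE 0.04, adjusted p = 0.00784), with estimates of 0.19 on chow and 0.24 on HFD, and without overlap on chow.

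The largest falls among the added genes were in genes with varied roles. Ift81, a gene of transport within cilia, had values of 75.3, 90.9 and 115 in WT and of 37.2, 57.7 and 90.7 in iKO, and fell by 0.59 (SE 0.13, adjusted p = 0.0194 by limma). On HFD the genotypes did not overlap, and on chow they did. Ift81 (chromosome 5, 122550204 to 122614518) lies beside Atp2a2 (122453513 to 122502225) on the same strand. Meig1, known for its part in spermatogenesis, fell by 0.54 (adjusted p = 0.00224), without overlap on either diet, from a median of 2.28 to 1.28. Amy1, an amylase, fell by 0.52 (adjusted p = 0.00711), and amylase genes share near-identical copies between which reads can be split. Acsm5, a medium-chain acyl-CoA synthetase, fell by 0.43 (adjusted p = 0.00834). Asb5, a ubiquitin ligase adaptor of muscle, fell by 0.37 (adjusted p = 0.00223), with an estimate of -0.37 on each diet. The remaining genes of the 12 largest falls were Lipo3, Gm12167, 1500017E21Rik, Gm14387, Pde11a, Tmem150c and Lrrc15, with -0.60 to -0.35. Gm12167 and 1500017E21Rik are annotated as antisense and Gm14387 as a pseudogene, so that their reads may come from a partner or a copy. Of the 12, Pde11a lost its call in 13 of the 20 fits that leave out 1 library (adjusted p up to 0.0834).

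Among the largest rises added by pooling were Igha, described further down, Junb, Ptn and Mdk. Junb, an immediate-early transcription factor of the AP-1 family, had values of 3.08, 4.01 and 4.99 in WT and of 4.21, 5.85 and 10.3 in iKO. The genotypes did not overlap on chow (4.14 ± 0.557 and 6.86 ± 1.47, SD, n = 5) and did on HFD, and Junb rose by 0.56 (SE 0.12, adjusted p = 0.0112 by limma). It was the only one of 15 tested immediate-early genes that was called (6.67%, against 3.23% of all tested genes). Of the 15, 13 had a change above 0, and the median was 0.21. Ptn and Mdk encode pleiotrophin and midkine, a pair of related heparin-binding growth factors. Ptn had values of 1.06, 1.51 and 1.93 in WT and of 1.44, 2.81 and 4.34 in iKO and rose by 0.54 (SE 0.13, adjusted p = 0.0197). Mdk rose from a median of 0.966 to 1.79, by 0.51 (SE 0.12, adjusted p = 0.0185).

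Ptn moved with the fibroblast level. The 5 iKO libraries with the high fibroblast level had the 5 highest values of Ptn, at 3.20, 4.34, 3.22, 2.89 and 3.91 in RT2, RT4, RT13, RT15 and RT17. The other iKO libraries were at 1.44 to 2.72. With the covariate the change of Ptn was 0.27 in place of 0.54 (adjusted p = 0.301 by limma) and that of Mdk 0.23 in place of 0.51 (adjusted p = 0.284). Junb went with that level on chow, at 8.77 in RT2 and 8.09 in RT4 against 5.44 to 6.17 in the other iKO libraries. On HFD it was mixed. Its highest value, 10.3, was in RT20, the iKO library with the lowest fibroblast level, and its lowest iKO value, 4.21, in RT15, where that level was high. RT13 and RT17, where that level was also high, were at 5.47 and 5.86, and RT11 at 4.42. The change of Junb with the covariate was 0.52 and was not called (adjusted p = 0.129 by limma). The fibroblast level itself went with genotype on average, so that this fit cannot separate them. A part of that level in these rises was not tested.

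Further down, Csrp2, a LIM domain protein known from smooth muscle, rose by 0.37 (adjusted p = 0.0128 by limma) from a median of 7.39 to 10.9. Slit3, a secreted guidance protein, rose by 0.45 (adjusted p = 0.0294), Cyp27a1, the sterol 27-hydroxylase, by 0.40 (adjusted p = 0.0281), and Gas1, a growth arrest gene of the cell surface, by 0.43 (adjusted p = 0.0474). Slit3, Cyp27a1 and Gas1 lost their call in 8, 7 and 14 of the 20 fits without 1 library (adjusted p up to 0.0588, 0.0617 and 0.0922). Igha, an immunoglobulin heavy chain gene, had the largest rise of all added genes (0.70, SE 0.19, adjusted p = 0.0481) and lost its call in 16 of these fits (adjusted p up to 0.0933). Its highest values were 4.04, 3.77, 2.98, 2.85 and 2.69 in RT13, RT4, RT7, RT17 and RT2, the iKO libraries above WT in macrophage and also in lymphocyte markers, whose part in this rise was not tested. The rest of the 12 largest rises were Pdgfrl, Gm15787, Phlda1 and Crispld2, with 0.49 to 0.38. Slit3, Cyp27a1, Gas1, Pdgfrl and Crispld2 were highest in RT2, RT4, RT13, RT15 and RT17, the iKO libraries with the high fibroblast level. Slit3 lay at 2.944 to 4.292 there, at 1.696 to 2.098 in the other iKO libraries and at 1.415 to 1.901 in WT. For Gas1 these ranges were 7.837 to 9.124, 4.658 to 5.338 and 3.748 to 6.31. Csrp2, Gm15787 and Phlda1 did not follow that level. Its part in these rises was not tested.

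Genes of insulin action and of interferon response were among the rises. Irs1, an adaptor of the insulin receptor, had values of 1.23, 1.68 and 2.18 in WT and of 1.98, 2.07 and 2.25 in iKO and rose by 0.22 (SE 0.05, adjusted p = 0.0109 by limma). Its iKO values were all above all WT values on HFD. Irs2, the related adaptor, rose by 0.29 and was called on HFD alone as well. Tbc1d4, a brake on glucose transporter traffic, fell by 0.18, and the other 16 of 19 insulin signalling genes were not called. The called share of that list was 15.8%, against 3.23% of all tested genes. Ifi27 and Oasl2 rose by 0.23 and 0.31 (adjusted p = 0.0192 and 0.028 by limma) among 25 interferon-stimulated genes, of which 23 had a change above 0. These 2 genes were 8% of the list, while 0.798% of all tested genes were called higher. In Ifi27 the 3 highest libraries, RT7, RT13 and RT4, were among the 5 iKO libraries above WT in macrophage markers, whose part in this rise was not tested.

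**Figure D4:**
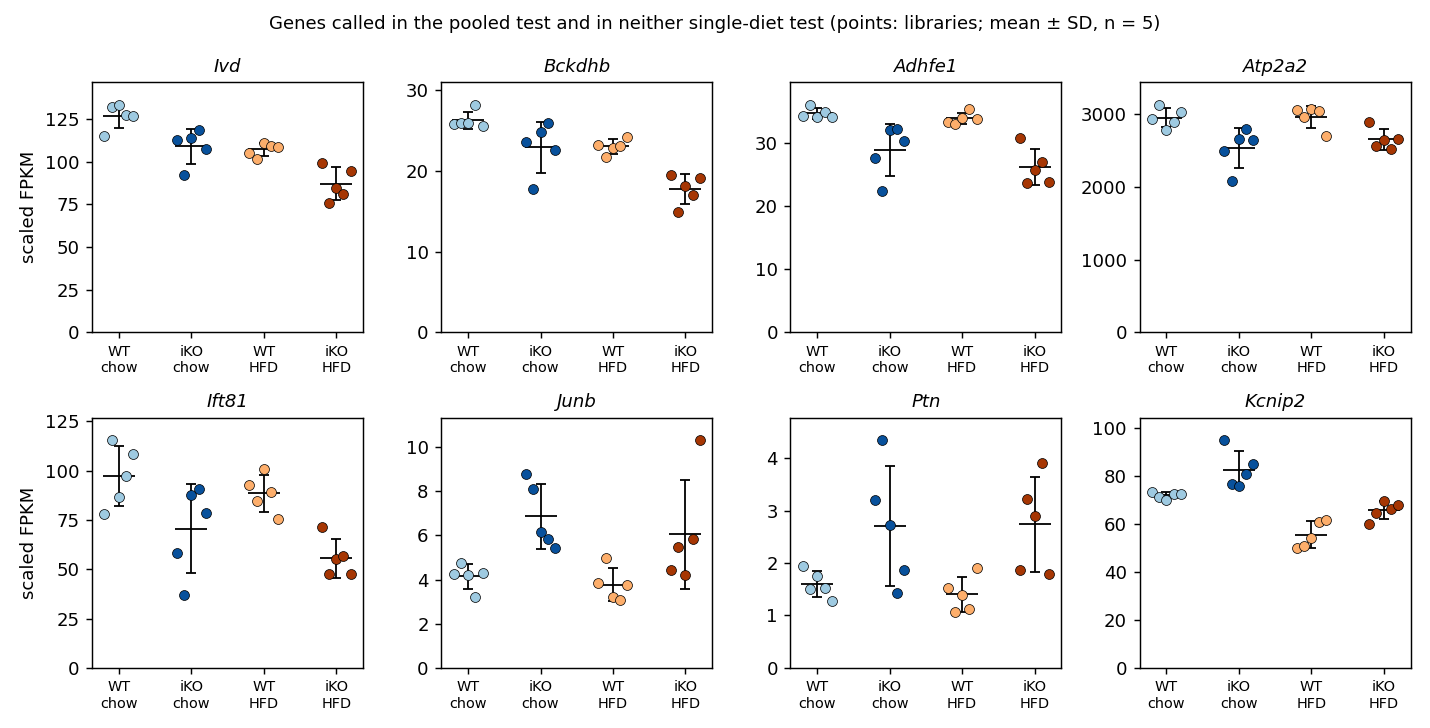
Scaled FPKM (vertical axes, from 0) of 8 genes that the pooled test called and neither single-diet test did, in each library (points) by group, with mean and SD (n = 5). Adhfe1 is lower in all iKO libraries than in all WT libraries, and in the other genes the genotypes overlap on 1 diet or both.

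Called genes were frequent around A1cf on chromosome 19. A1cf, whose protein helps edit the mRNA of apolipoprotein B, was listed at 0 in 9 of the 10 WT libraries and at 0.01 in the tenth, and at 0.107 to 1.15 in iKO. It reached 0.5 FPKM in 6 iKO libraries and in no WT library, so that it was tested only because it is high in iKO and had to differ. It was the only gene among the 102 called higher that reached 0.5 FPKM in no WT library. Of 14 other tested genes that start within 2 Mb of it, 4 were called (28.6%), and 12 of 77 within 8 Mb (15.6%), against 3.23% of all tested genes. The windows were drawn after these values were seen. Those called higher within 8 Mb were Prkg1, Rnls, Lipo2 and Rbp4, and those called lower were Lipo3, Vldlr, Kcnv2, Dock8, Ifit1bl1, Pank1, 1500017E21Rik and Lgi1. Lipo3, Ifit1bl1, 1500017E21Rik and Rbp4 were among the genes added by pooling. Lipo2 and Rbp4 reached 0.5 FPKM in 2 and 1 WT libraries and in 10 and 6 iKO libraries, so that they too passed the filter only through iKO. Both are among the 12 called within 8 Mb, and Lipo2 is among the 4 within 2 Mb, which raises these shares.

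Prkg1, a cGMP-dependent protein kinase, had values of 2.37, 2.80 and 3.08 in WT and of 3.03, 4.55 and 6.64 in iKO. It rose by 0.54 (SE 0.07, adjusted p = 9.05e-05 by limma), without overlap on either diet. Lipo2 and Lipo3 are lipase genes whose spans overlap (33719670 to 33751359 and 33555160 to 33761951), so that reads may be split between them. Lipo2 lay at 1.52 to 2.98 in iKO, at 0.059 to 0.12 in the 5 WT libraries on chow, and at 0.073 to 0.126 in 3 of the WT libraries on HFD. WT HFD libraries RT16 and RT18 stood at 1.60 and 1.47, within and just below the iKO range. In Rnls, too, they were the highest WT libraries, at 4.735 and 4.951. The other WT libraries were at 2.675 to 3.839 and iKO at 3.888 to 5.251. In Prkg1 they lay below every iKO library on HFD, and in Kcnv2 above every one. The reason for their values was not tested. Lipo3 had values of 3.37, 4.53 and 5.35 in WT and of 1.44, 3.04 and 3.63 in iKO and fell by 0.60 (adjusted p = 0.00939 by limma). Its lowest WT libraries were RT18 and RT16, at 3.367 and 3.652.

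**Figure D5:**
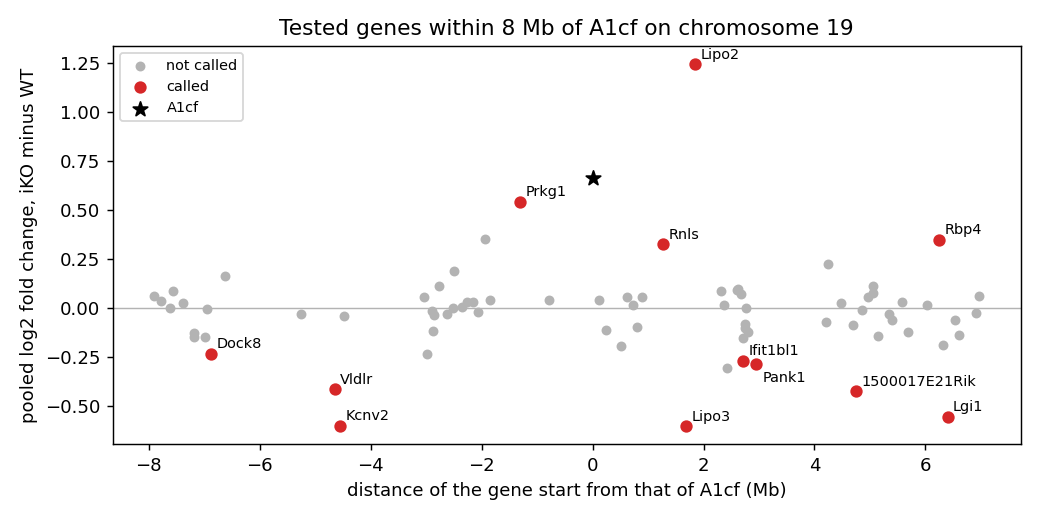
Pooled change in iKO against WT (log2, vertical axis) of the 77 tested genes that start within 8 Mb of A1cf, by distance from its start in Mb (horizontal axis). Red points are the 12 called genes, grey points those not called and the star is A1cf; called genes lie on both sides of A1cf and of 0.

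In 21 genes (0.164% of those tested) a single diet gave a call that the pooled test did not, 17 on chow (0.133%) and 4 on HFD (0.0313%), and the examples here were chosen after their values were seen. The 4 on HFD were Mthfd2, a mitochondrial enzyme of folate metabolism (1.14 on HFD and -0.01 on chow), Asns, asparagine synthetase (0.54 and 0.05), Trib3, a stress-induced pseudokinase (0.39 and 0.04), and Gtf2h5, a small subunit of a transcription and repair factor (-0.26 and -0.03). On chow they included Gpam, an acyltransferase of glycerolipid synthesis (-0.49 on chow and 0.02 on HFD), and Tac1, a neuropeptide precursor (0.60 and 0.10). No difference between diets was called for any of these by limma.

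The promoters of added genes were searched for the response element of PPAR-alpha with RXR, a choice made with the falls among its targets known. The element searched was a direct repeat of AGGTCA with 1 base of any kind between the copies, with up to 2 of its 12 fixed letters different, on both strands, in the 250 bases before each RefSeq start, and no other motif was searched. A promoter was at hand for 9500 of the tested genes, and 283 (2.98%) held a match. Matches were in 14 of 238 promoters of genes called lower (5.88%), in 10 of 147 of those called lower and added by pooling (6.8%), and in 0 of 76 of genes called higher. In the branched-chain list 1 of 18 promoters held one, that of Aldh6a1. Each of the 3 sites shown differs from the element in 2 of the 12 fixed letters, the most allowed. Sequences of these 3 added genes are given from 5′ to 3′ on the strand of the gene, from RefSeq on GRCm38.p6. The 13 bases aligned to the element are in capitals.
Aldh6a1 (chr12:84451097-84451153, minus strand): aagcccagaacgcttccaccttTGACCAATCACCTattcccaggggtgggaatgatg
Ldhb (chr6:142508080-142508136, minus strand): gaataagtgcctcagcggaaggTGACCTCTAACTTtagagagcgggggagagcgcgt
Prdx3 (chr19:60874694-60874750, minus strand): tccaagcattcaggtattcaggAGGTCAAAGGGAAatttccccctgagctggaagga
Ldhb, the heart subunit of lactate dehydrogenase, fell by 0.15 (adjusted p = 0.0351 by limma), and Prdx3, a mitochondrial peroxiredoxin, by 0.14 (adjusted p = 0.0135). A match is a run of letters and not a bound site, and a part of PPAR-alpha in these falls was not tested.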

How the data were processed

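Poly(A) RNA of 20 left ventricles was sequenced as 100 nt single-end reads, per the labels' protocols. The authors deposited FPKM per gene, 1 table per library; the submitters' processing notes name Bowtie2, RSEM, DESeq2 and the build mm9 without versions. The gene IDs match GENCODE M21 (24938 of 25052), an annotation of GRCm38, so coordinates are given on GRCm38 by ID. FPKM are not counts, and no count test was run; depth was inferred from single-read steps among low FPKM of short genes, of which 49.2% to 65.3% were whole within 0.05 reads, too few to recover counts.

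Values were scaled by median-of-ratios factors (0.896 to 1.141) and taken as log2(scaled FPKM + 1). Genes reaching 0.5 FPKM in 5 libraries or more were fitted with limma 3.58.1 (R 4.3.3; intensity trend, robust moderation), with genotype and diet as terms for the pooled effect and 4 group means for each diet and for the difference between diets. Each was adjusted by Benjamini-Hochberg over 12775 genes, with calls at 0.05. The script was tested on simulated data.

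The members and the 53 gene lists were chosen with earlier results of these data known, so that lists are described by counts and medians with no set test. Named genes were a fixed set, the 12 largest rises and falls among added genes and the 6 among all calls (mean log2 value 1 or more), and for each list its 4 called members of smallest p. The members of the branched-chain list, the genes around A1cf and those said to be chosen after their values were seen stand outside this rule. Etfb, Echs1, Ndufs8 and Ndufb5 were named after their values were seen. A few genes are not reported here by name and remain in the counts.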

Additional observations from a re-analysis of the deposited data

Results flagged for a closer look

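Among 199 groups of 5 libraries (46 genes and 4 marker or gene lists), 13 held 1 library whose gap to its nearest neighbour was over 0.71 of the group's range, and chance alone gives about 1 in 20. WT chow library RT1 was low in Acaa2 (483 scaled FPKM against 539 to 547 in the others), Decr1 (150.1 against 158 to 162) and Fabp3 (3228.5 against 3395 to 3448), and was the WT library in which A1cf was listed above 0 (0.01). RT1 also had the highest level of atrial muscle markers in its group (2.041 in centred log2 units, the others at -0.319 to -0.104), as had iKO chow library RT4 (1.442 against -0.109 to 0.172). RT4 had the lowest level of the branched-chain list (-0.149 against 0.036 to 0.081). WT chow library RT8 was high in Bckdhb (28.2 against 25.6 to 25.9) and RT3 in Irs1 (2.17 against 1.51 to 1.7). On HFD, WT library RT19 was low in Atp2a2 (2705 against 2969.8 to 3073) and high in Csrp2 (10.8 against 6.99 to 7.98). WT HFD library RT16 was low in macrophage markers (-0.275 against -0.055 to 0.006), and iKO HFD library RT20 was high in Junb (10.3 against 4.21 to 5.86). Without RT1 and RT4 together, 284 genes were called in the pooled test and 8 genes of the branched-chain list.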

How the results depend on the processing

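No paired analysis was possible because each library number occurs once, so that the groups share no replicate number. The counts below are given in the order all pooled calls, higher, lower, then genes called in neither single-diet test, higher and lower. Against 413, 102, 311, 275, 85 and 190 they were 692, 547, 145, 567, 499 and 68 without scaling, where the difference between diets called 4 genes. Without a filter on low values they were 217, 42, 175, 127, 29 and 98, with 9 calls on HFD, while 25052 genes were tested. Without a diet term they were 148, 38, 110, 86, 25 and 61. Without iKO chow libraries RT4 and RT7 they were 239, 47, 192, 150, 37 and 113, with 79 calls on chow and 46 on HFD. With the fibroblast level as a covariate they were 94, 22, 72, 31, 11 and 20, with 8 calls on HFD, 2 for the difference between diets and 17 lists with a call in place of 28. The last 2 alternatives were chosen after the data were seen. Array quality weights gave 197 higher, 445 in neither single-diet test with 171 higher, and 53 on HFD. Without RT1 and RT4 there were 61 higher, 180 in neither single-diet test with 51 higher, and 41 on HFD. Single-diet tests fitted to 1 diet's libraries called 10 genes on HFD.

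Leaving out 1 library at a time gave 275 to 577 pooled calls, the fewest without RT13 and the most without RT11. Of these 60 to 186 were higher and 215 to 391 lower. There were 155 to 431 genes in neither single-diet test (47 to 167 higher, 108 to 264 lower), 104 to 159 calls on chow, 7 to 49 on HFD, 0 to 4 for the difference between diets and 25 to 31 lists with a call. In all 20 of these fits 248 of the 413 genes and 130 of the 275 stayed called. For single named genes, 4046 of the comparisons with an alternative kept the call and direction, 667 lost the call, 19 gained one and 0 reversed. The causes were not tested. Upper-quartile scaling, a pseudocount of 0.1, a stricter filter, no moderation and the mean of both diets' contrasts left all these counts within 1.5 times. Other rules for alike shifts gave the same 275, 85 and 190. They could add no gene, and asking for the same sign alone could also remove none, so that this is no check of stability. The depth limits what can be said of genes near 0.5 FPKM.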

Other observations

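Rpl3, a ribosomal protein gene, was among the added rises (0.20, adjusted p = 0.0259 by limma) and did not stay called with the fibroblast level as a covariate (adjusted p = 0.389). Dgat2, which makes triglyceride, and the glutathione transferases Gstm2 and Gstk1 were among the added falls (-0.24, -0.27 and -0.27).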
